A study of Mus musculus with 4 samples.

Results

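The 41 genes described here encode the enzymes of cholesterol synthesis, the SREBP control system, the LXR receptors and their targets, and enzymes of fatty acid synthesis and desaturation. They were taken by name from a counts table of 23783 mouse genes, each as its most abundant RefSeq transcript record. Expression was measured by RNA-seq in BV-2, an immortalised line of mouse microglia, the resident macrophages of the brain. The labels give 2 libraries of cells given 10 ng/ml LPS over 4 h and 2 libraries of control cells labelled with the same 4 h. LPS comes from the outer membrane of Gram-negative bacteria and is recognised by the TLR4 receptor. BV-2 is a single established line, although the growth text also describes shaking microglia off mixed glial cultures. Medium with 20% fetal bovine serum is given for all samples, and nothing says that libraries of a group came from separate cultures. The p-values therefore measure the spread between these libraries, which may be technical.

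Cholesterol is built from acetyl-CoA through mevalonate, isoprenoids and squalene, which is closed into the sterol ring and then trimmed. SREBP transcription factors switch these enzymes on when membrane sterol is low, and INSIG proteins hold SREBP back in the endoplasmic reticulum when sterol is high. LXR receptors respond to oxysterols and switch on cholesterol export and parts of fatty acid synthesis. In macrophages and microglia both systems are known to be coupled to the response to bacterial products.

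Counts over the deposited columns came to 3368693 and 3082538 in the LPS libraries and 2778686 and 3059196 in the controls. The 5 most abundant records took 53.4% to 67.5% of a library, which left 902176 to 1425303 counts for all others. A normalised count is the count divided by the TMM-scaled library size and multiplied by the mean scaled size of 3119862. All 10 inflammatory genes used to check the treatment label passed the test as higher, with summed normalised counts of 19838 and 20412 in the LPS libraries and 606 and 614 in the controls. Of 17 microglia and macrophage markers 10 could be tested, among them Csf1r and Tyrobp, and the sums over these 10 were 4327 and 4351 normalised counts in the LPS libraries and 4350 and 3838 in the controls. Spi1, a myeloid transcription factor gene in that list, was higher after LPS (log2 fold change 1.15, adjusted p 0.00391). Listed at 0 in every library were 7 of 10 astrocyte markers, Gfap and Aqp4 included, 8 of 10 oligodendrocyte lineage markers and 9 of 10 neuron markers. Of these lists 3 astrocyte, 5 oligodendrocyte and 5 neuron markers have 2 or more records in the table, for which a 0 says little, as described next. The astrocyte marker Aldoc, a glycolytic enzyme gene, was tested and had 116 and 90.9 normalised counts in the LPS libraries, against 138 and 77.6 in the controls (adjusted p 0.992). P2ry12, a marker of microglia in the brain, stayed at or below 4.22 normalised counts. Such bulk samples do not tell a change in the share of cells expressing a gene from a change in its RNA per cell.

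How many of the 41 genes could be measured depended on how the table lists them. Among the 32 members with 1 record, the median was 491 counts over the 4 libraries, and 29 of them passed the filter on low counts. Among the 9 members with 2 or more records, no gene had more than 34 counts, and 1 passed, Pmvk. The same held in the whole table, where 34.4% of 19018 genes with 1 record and 6.28% of 4765 genes with 2 or more reached 40 counts. Gapdh, a gene every cell uses, has 2 records and 30 counts, against 29565 counts for Actb with 1 record. A value at or near 0 for a gene with several records is therefore given as listed and not as absence of the transcript.

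**Figure D1:**
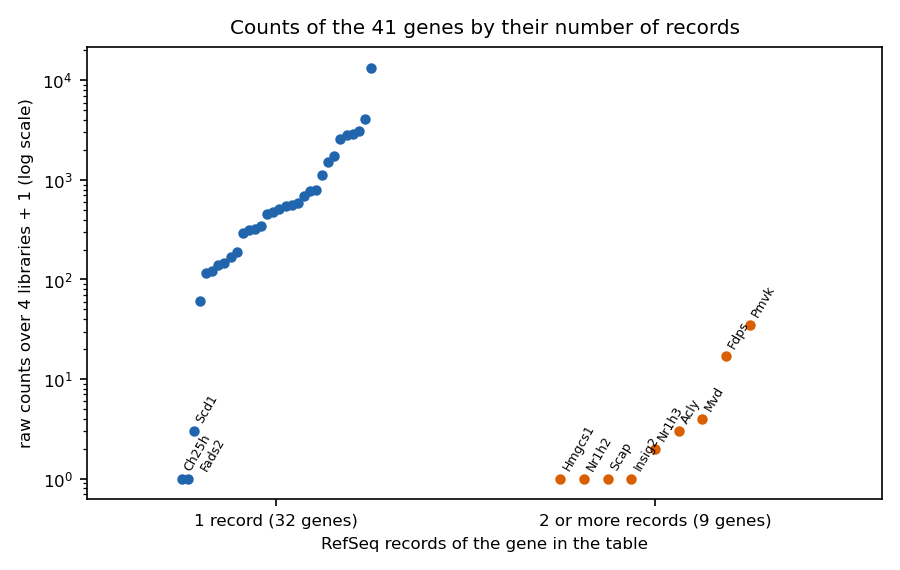
Raw counts of each of the 41 genes summed over the 4 libraries, plus 1, on a log axis, for genes with 1 RefSeq record in the table (blue) and with 2 or more (orange). All 9 genes with several records have 34 counts or fewer, whereas 29 of 32 genes with 1 record have 60 or more.

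The filter left 11 members without a test. Hmgcs1, the synthase that makes HMG-CoA, Insig2, the SREBP-regulating chaperone gene Scap, and Nr1h2, which encodes LXR-beta, were listed at 0 in every library, and each has 2 or more records. Nr1h3, which encodes LXR-alpha, had 1 count, Acly, the ATP citrate lyase, had 2, Mvd, a mevalonate pathway decarboxylase, had 3, and Fdps, the farnesyl diphosphate synthase, had 16, also with 2 or more records each. Of the genes with 1 record, Fads2, a fatty acid desaturase, and Ch25h, which makes 25-hydroxycholesterol, were at 0, and Scd1, a stearoyl-CoA desaturase, had 2 counts. A count of 0 allows up to 3 counts per library, and this covers counting error only. Neither LXR receptor could thus be compared between the groups.

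Of the 30 members tested, 4 were higher after LPS (Hsd17b7, Insig1, Msmo1 and Fdft1), 3 were lower (Abcg1, Mylip and Scd2) and 23 did not pass. The test was edgeR's quasi-likelihood test with n = 2 per group, and p-values were adjusted by Benjamini-Hochberg over all 6981 records and called below 0.05. Across all records 3.82% were higher and 1.7% lower, against 13.3% and 10.0% of the tested members. The 4 higher genes all belong to cholesterol synthesis or its feedback, and the 3 lower genes to LXR targets or fatty acid desaturation. Both LPS libraries lay above both controls in 11 members (21.4% of all records) and below them in 7 (21.9% of all records). The member counts depended on the library left out: 10 higher and 3 lower without control replicate 1, 7 and 5 without control replicate 2, 1 and 1 without LPS replicate 1, and 1 and 0 without LPS replicate 2. After removal of a trend on transcript GC and length, 7 members were higher and 3 lower, while 56.1% rather than 69.2% of all calls were higher.

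**Figure D2:**
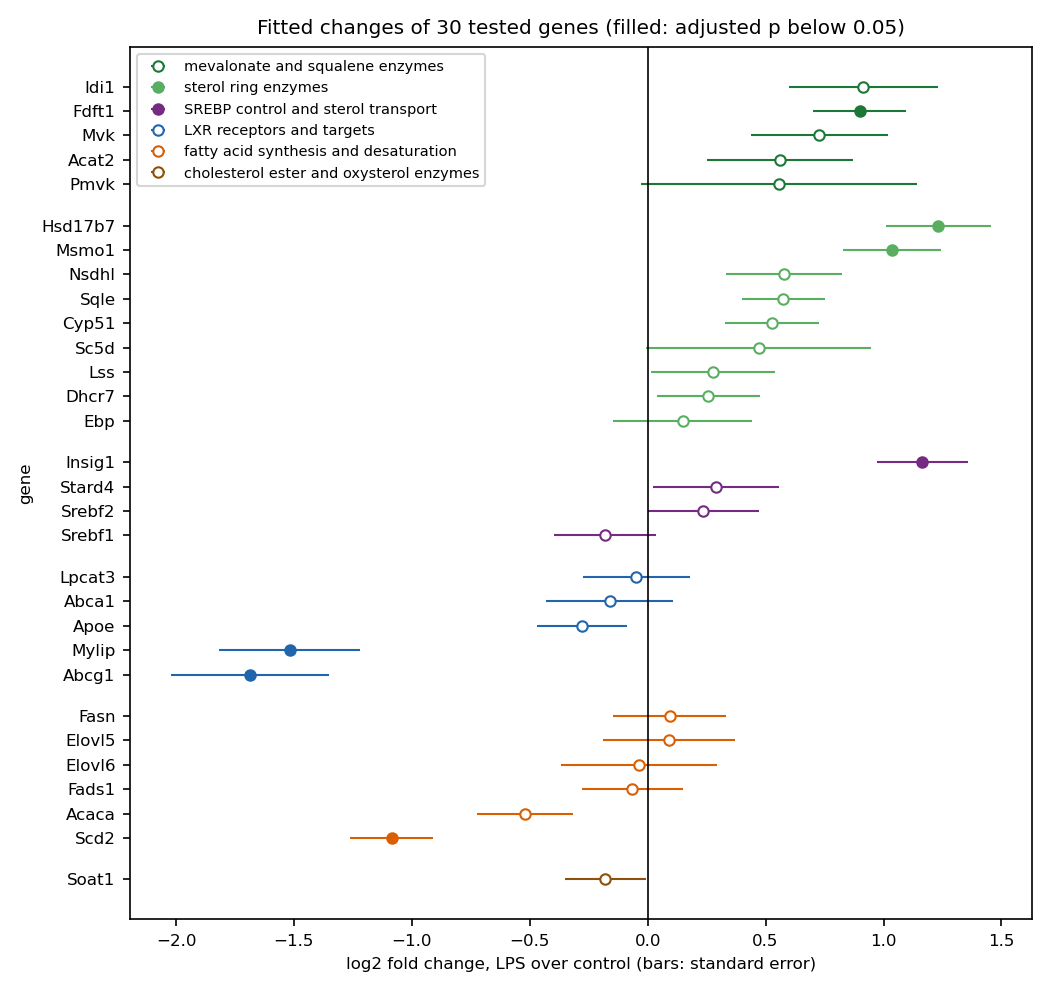
Fitted log2 fold change, LPS over control, for the 30 tested genes, grouped by role, with bars of 1 standard error and filled points for an adjusted p below 0.05. All 14 sterol enzymes lie right of 0, between 0.15 and 1.23, and the 5 tested LXR targets lie left of it, between -1.69 and -0.05.

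Promoter windows were looked at because the tested sterol enzymes of the list share a direction. RefSeq windows of assembly GRCm38.p6, from 250 bases before to 50 after the transcription start, were found for 33 members as 44 windows. NF-Y is a general activator that is known to work beside SREBP at sterol gene promoters, and its CCAAT box was searched on both strands. The windows of the 3 called-higher genes that have one, and of the 1 called-lower gene that has one, are shown 5′ to 3′ with the CCAAT boxes (ATTGG on the other strand) in capitals.
Insig1 (chr5:28071162-28071461, plus strand): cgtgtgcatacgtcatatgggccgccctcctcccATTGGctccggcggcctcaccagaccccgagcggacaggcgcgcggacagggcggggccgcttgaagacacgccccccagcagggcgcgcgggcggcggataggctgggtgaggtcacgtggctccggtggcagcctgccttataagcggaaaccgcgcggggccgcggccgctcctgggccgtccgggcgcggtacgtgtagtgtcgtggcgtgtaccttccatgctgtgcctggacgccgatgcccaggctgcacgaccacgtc
Hsd17b7 (chr1:169969156-169969455, minus strand): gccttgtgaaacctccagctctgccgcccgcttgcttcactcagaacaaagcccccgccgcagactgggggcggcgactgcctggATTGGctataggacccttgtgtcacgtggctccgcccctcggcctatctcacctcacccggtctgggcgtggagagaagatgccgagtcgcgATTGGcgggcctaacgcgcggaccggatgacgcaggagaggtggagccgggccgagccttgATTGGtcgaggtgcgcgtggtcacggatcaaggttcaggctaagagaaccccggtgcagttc
Msmo1 (chr8:64733529-64733828, minus strand): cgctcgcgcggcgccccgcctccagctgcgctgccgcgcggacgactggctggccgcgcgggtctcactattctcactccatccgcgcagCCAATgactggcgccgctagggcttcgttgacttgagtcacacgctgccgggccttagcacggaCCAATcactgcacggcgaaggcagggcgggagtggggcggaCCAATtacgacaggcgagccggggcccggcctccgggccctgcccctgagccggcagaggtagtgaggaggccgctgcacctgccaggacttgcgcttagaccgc
Mylip (chr13:45389492-45389791, plus strand): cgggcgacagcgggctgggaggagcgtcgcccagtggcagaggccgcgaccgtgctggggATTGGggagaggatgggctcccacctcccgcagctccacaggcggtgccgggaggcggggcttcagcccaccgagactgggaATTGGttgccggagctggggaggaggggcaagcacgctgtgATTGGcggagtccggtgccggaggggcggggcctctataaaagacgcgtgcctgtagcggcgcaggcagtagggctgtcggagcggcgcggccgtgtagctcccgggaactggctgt

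The CCAAT box occurred once in the Insig1 window and 3 times each in those of Hsd17b7, Msmo1 and Mylip. It was found in 13 of 17 windows of sterol enzymes, which belong to 13 of 14 genes. Those 14 genes are not the 14 tested enzymes: Hmgcs1 and Mvd were not tested, and Sqle and Fdft1 have no window. The box was in 3 of 6 windows of fatty acid genes and in 2 of 9 windows of LXR receptors and targets. Over all member windows it was in 24 of 44, or 54.5%, against 37.4% of all 32851 promoter windows. The SREBP site TCACNCCAC was found in 1 member window (2.27%), that of Hmgcs1, and in 1.24% of all windows. The NF-kB consensus, searched by its usual ambiguous form, was found in 6 of 44 member windows (13.6%), against 8.46% of all. None of the windows printed above held it. The E-box CACGTG was in 8 member windows (18.2%) against 7.15% of all. The single LXR receptor hexamer AGGTCA was in 7 (15.9%) against 16.3%. The LXR direct repeat with a spacer of 4 was in no member window and in 0.0152% of all windows. A match describes these letters in this window and is not a measured binding site.

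Enzymes from acetyl-CoA to squalene were higher in 1 of 5 tested cases, Fdft1, against 3.82% of all records. The other 4 did not pass. Fdft1 encodes squalene synthase, the first step committed to sterols (NM_010191, chromosome 14, 63145150 to 63181687). It had 258 and 236 normalised counts in the LPS libraries, against 129 and 135 in the controls. The LPS libraries were both above the controls by more than either pair differed, a 1.86-fold rise (log2 fold change 0.90, SE 0.198, adjusted p 0.0210). The annotated span of Fdft1 overlaps that of Ctsb, a protease gene on the opposite strand with 12436 counts, and the strand setting of the counting is not given in the sources used here. Ctsb itself had a log2 fold change of -0.08 (adjusted p 0.934).

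Idi1, the isomerase that interconverts the isoprenoid building blocks, had 310 and 399 normalised counts in the LPS libraries, against 110 and 258 in the controls. Its groups did not overlap, but the controls differed from each other by more than the LPS libraries did, and it did not pass (log2 fold change 0.91, SE 0.318, adjusted p 0.162). Its value was 0.46 without control replicate 1 and 1.68 without control replicate 2. A fit with 1 control takes its spread from the LPS pair, so only its effect size is given. Mvk, the mevalonate kinase, had 63.8 and 51.8 normalised counts after LPS, against 40.8 and 30.4 in controls (log2 fold change 0.73, adjusted p 0.242). Acat2, a thiolase at the start of the pathway, and Pmvk, the next kinase after Mvk, had log2 fold changes of 0.56 each and did not pass. Pmvk rests on 34 counts in all.

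The 9 enzymes that close and trim the sterol ring were all tested. Of these 2 were higher, Hsd17b7 and Msmo1, against 3.82% of all records. Hsd17b7, a sterol ketone reductase (NM_010476, chromosome 1, 169949535 to 169969242), had 178 and 202 normalised counts in the LPS libraries, against 71.7 and 88.6 in the controls. Means were 190 ± 17.0 after LPS and 80.2 ± 11.9 in controls (SD, n = 2 each), a 2.35-fold rise (log2 fold change 1.23, SE 0.223, adjusted p 0.00638). Msmo1, which removes methyl groups from the ring (NM_025436, chromosome 8, 64718123 to 64733578), had 563 and 561 normalised counts after LPS, against 224 and 322 in controls. The LPS libraries were nearly equal while the controls differed, and the rise was 2.05-fold (log2 fold change 1.03, SE 0.208, adjusted p 0.0123). Both of these enzymes act at the removal of methyl groups from the ring, and Nsdhl and Cyp51, which also act there, did not pass.

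Sqle, the squalene epoxidase and a rate-limiting step of the pathway, had 862 and 828 normalised counts in the LPS libraries, against 539 and 594 in the controls. The groups did not overlap, and Sqle did not pass (log2 fold change 0.58, SE 0.174, adjusted p 0.0987). Cyp51, the lanosterol demethylase, had 220 and 242 normalised counts after LPS, against 148 and 171 in controls (log2 fold change 0.53, adjusted p 0.215). Nsdhl, the decarboxylating dehydrogenase, had 123 and 163 after LPS, against 111 and 82.7 in controls (log2 fold change 0.58, adjusted p 0.288). For these 3 genes the LPS libraries were above both controls, but the test did not separate the groups. Sqle, Cyp51 and Idi1 passed with the GC and length trend removed, with adjusted p-values of 0.00962, 0.0390 and 0.0144. The remaining ring enzymes had lower values: 0.28 for Lss, the lanosterol synthase that closes the ring, 0.47 for Sc5d, 0.26 for Dhcr7, the final reductase, and 0.15 for Ebp, a sterol isomerase, on the log2 scale, and none passed. Sc5d, a desaturase of the late pathway, had only 60 counts in all.

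As a list, the 14 tested sterol enzymes had positive log2 fold changes without exception, with a median of 0.57, against -0.01 over all 6981 records, of which 48.3% were positive. Both LPS libraries lay above both controls in 10 of the 14 (21.4% of all records). Their summed normalised counts were 2885 and 2987 in the LPS libraries and 1625 and 1924 in the controls. Each of the 14 was positive in every alternative fit that tested it, and the median over the alternatives ran from 0.48 to 0.65. The fit limited to records with a mean of 50 normalised counts held 9 of the 14. This count is a description of a chosen list, and 3 of its members passed the test.

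**Figure D3:**
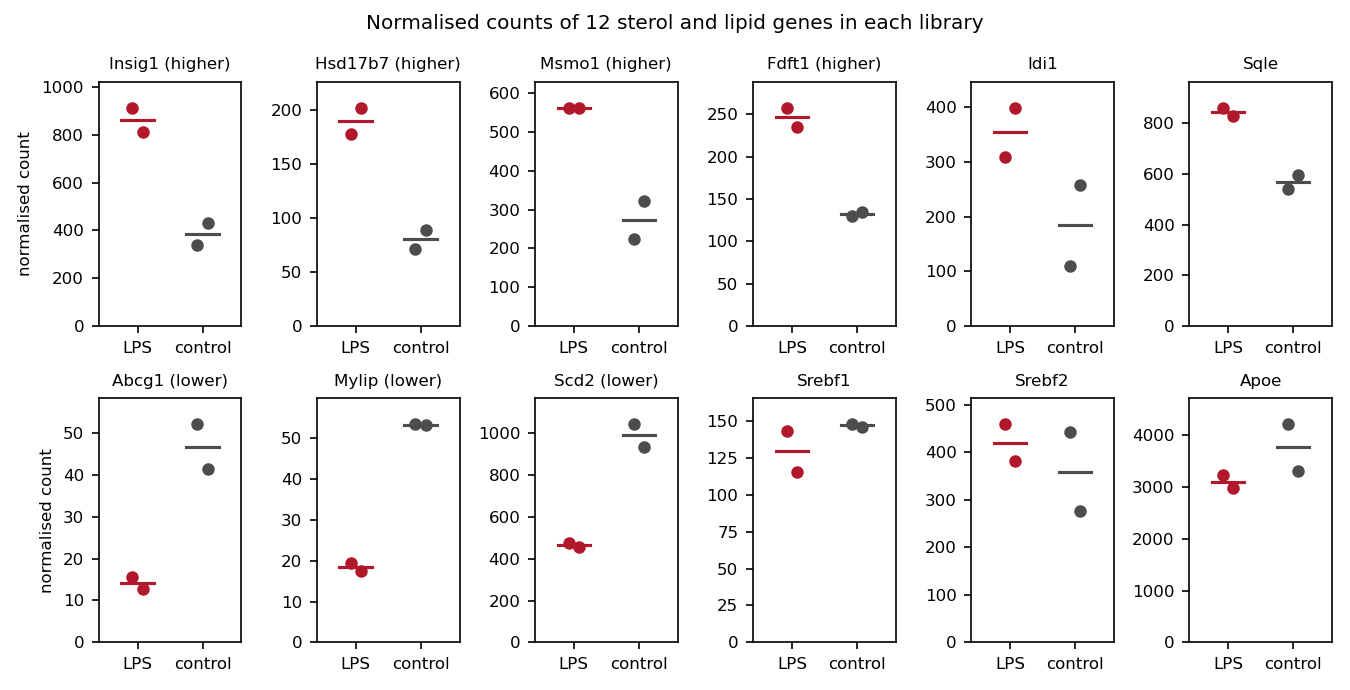
Normalised counts of 12 genes in each library, with LPS (red) left of control (grey), points for libraries and lines for group means, each panel with its own linear axis from 0. The 2 libraries of a group lie close together for Fdft1, Mylip and Scd2, while the controls of Idi1 (110 and 258) and Srebf2 (443 and 276) lie far apart.

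In the control system the feedback gene rose and the transcription factors did not pass with all 4 libraries in the main design. Insig1 encodes the sterol-sensing protein that retains SREBP and is itself a well-known SREBP target (NM_153526, chromosome 5, 28071412 to 28078662). It had 913 and 813 normalised counts in the LPS libraries, against 338 and 430 in the controls. The lower LPS library was well above the higher control, a 2.24-fold rise with means of 863 ± 71.2 after LPS and 384 ± 65.1 in controls (SD, n = 2 each; log2 fold change 1.16, SE 0.192, adjusted p 0.00349). Srebf1, whose products drive mainly fatty acid genes, had 143 and 115 normalised counts after LPS, against 148 and 146 in controls (log2 fold change -0.18, SE 0.215, adjusted p 0.834). Srebf2, whose product drives mainly cholesterol genes, had 459 and 381 after LPS, against 443 and 276 in controls (log2 fold change 0.24, SE 0.235, adjusted p 0.785). Its groups overlapped, and its value was 0.62 without control replicate 1 and -0.08 without control replicate 2. A fit with both the replicate block and the GC and length correction gave 0.42 (adjusted p 0.00601). Stard4, a cytosolic carrier of cholesterol, had 77.7 and 93.9 after LPS, against 54.9 and 82.7 in controls, and did not pass (log2 fold change 0.29, adjusted p 0.755).

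LXR targets were lower in 2 of 5 tested cases, Abcg1 and Mylip, against 1.7% of all records. Both were called lower from few counts. Abcg1, an exporter of cholesterol to lipoprotein particles (NM_009593, chromosome 17, 31057694 to 31117984), had 15.7 and 12.7 normalised counts in the LPS libraries, against 52.0 and 41.4 in the controls. Mylip, an E3 ubiquitin ligase that marks lipoprotein receptors for breakdown (NM_153789, chromosome 13, 45389742 to 45411940), had 19.4 and 17.6 after LPS, against 53.4 and 53.2 in controls. The groups of both genes were far apart relative to the libraries within them. Abcg1 fell 3.22-fold (log2 fold change -1.69, SE 0.336, adjusted p 0.0115) and Mylip 2.86-fold (log2 fold change -1.52, SE 0.300, adjusted p 0.0110). In the DESeq2 Wald test neither passed, with adjusted p-values of 0.0586 for Abcg1 and 0.0692 for Mylip.

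The other exporter, Abca1, which loads cholesterol onto apolipoproteins, had 86.0 and 59.7 normalised counts in the LPS libraries, against 70.3 and 91.1 in the controls. Its groups overlapped (log2 fold change -0.16, SE 0.269, adjusted p 0.893), and without control replicate 2 the value was 0.05. Apoe, the apolipoprotein that carries lipid between brain cells, was the most abundant member, with 2441 normalised counts per kilobase of transcript as a mean of the 4 libraries, against 256 for Sqle, the next. Apoe had 3229 and 2983 normalised counts after LPS, against 4217 and 3316 in controls. Both LPS libraries were below both controls, and the difference did not pass (log2 fold change -0.28, SE 0.190, adjusted p 0.5996). Without control replicate 2 it was -0.45. Lpcat3, a remodelling enzyme of membrane phospholipids, had a log2 fold change of -0.05. The difference in change between Abcg1 and Abca1 was not tested.

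Fatty acid genes were lower in 1 of 6 tested cases, Scd2, against 1.7% of all records. Scd2 encodes a stearoyl-CoA desaturase, which puts the first double bond into saturated fatty acids (NM_009128, chromosome 19, 44293676 to 44306864). Scd2 had 475 and 458 normalised counts in the LPS libraries, against 1044 and 937 in the controls. Means were 466 ± 12.4 after LPS and 990 ± 75.6 in controls (SD, n = 2 each), a 2.12-fold fall (log2 fold change -1.08, SE 0.176, adjusted p 0.00321). Its paralog Scd1 had 2 counts over the 4 libraries, and 2.68% of the 50-base stretches of the longest Scd2 transcript also occur in that of Scd1. Acaca, the acetyl-CoA carboxylase of fatty acid synthesis, had 123 and 122 after LPS, against 181 and 171 in controls. These groups did not overlap, yet the test was not passed (log2 fold change -0.52, SE 0.203, adjusted p 0.230).

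Fasn, the fatty acid synthase, had 884 and 775 normalised counts in the LPS libraries, against 983 and 578 in the controls. The controls enclosed the LPS libraries (log2 fold change 0.09, SE 0.238, adjusted p 0.939). The value was 0.53 without control replicate 1 and -0.25 without control replicate 2. A fit with both the replicate block and the GC and length correction gave 0.38 (adjusted p 0.00804). The elongases Elovl5 and Elovl6 and the desaturase Fads1 had log2 fold changes of 0.09, -0.04 and -0.07. Elovl6 had 69.3 and 95.8 normalised counts after LPS, against 52.0 and 112 in controls. Soat1, which stores cholesterol as esters, was the tested member of the cholesterol ester and oxysterol group, with 956 and 984 after LPS, against 1135 and 1062 in controls (log2 fold change -0.18, SE 0.171, adjusted p 0.774). Ch25h was listed at 0, and Gpr183, the receptor for an oxysterol made downstream of it, had 12.9 and 4.89 normalised counts after LPS, against 160 and 151 in controls (log2 fold change -4.09, adjusted p 2.52e-05).

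**Figure D4:**
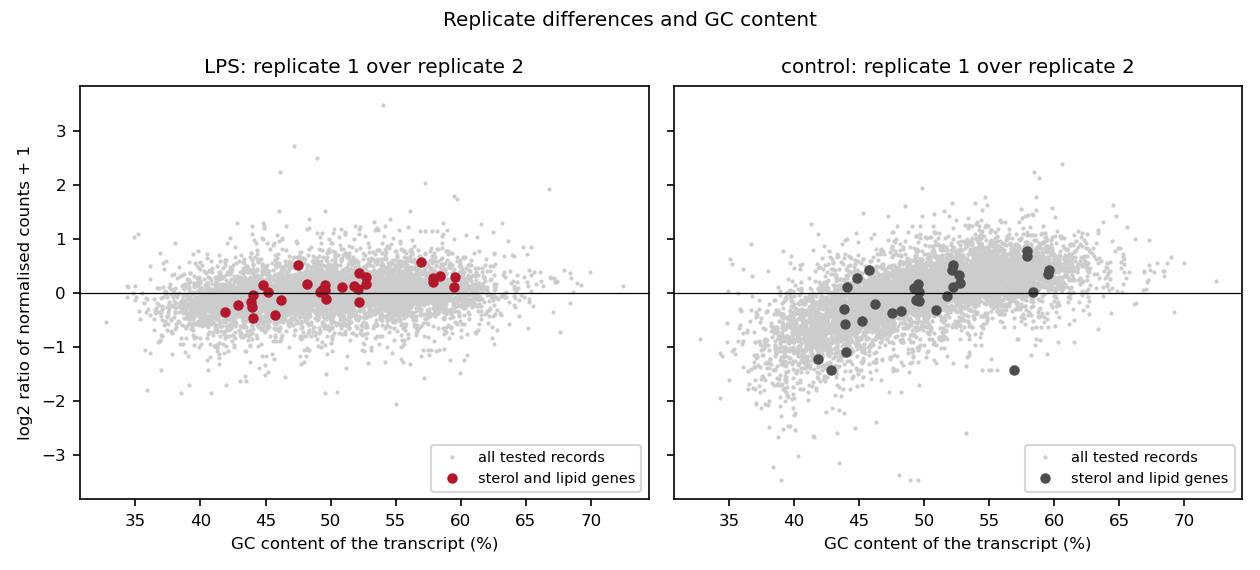
Log2 ratio of replicate 1 over replicate 2 (normalised counts plus 1) against the GC content of the transcript, for LPS (left) and control (right), with all tested records in light grey and the 30 tested members in dark colour. In the controls most records of low GC content lie below 0 and most of high GC content above it.

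The control libraries differed from each other in a way that went with base composition. Across 6956 records the ratio of replicate 1 to replicate 2 had a Spearman's rho with GC content of 0.267 in the LPS pair and 0.661 in the control pair. These correlations are across genes, which are not independent replicates. Among the 30 tested members the values were 0.709 in the LPS pair and 0.602 in the control pair. Idi1, with 41.9% GC, was at a log2 ratio of -1.23 between the controls, and Srebf2, with 57.9% GC, at 0.68. The change with LPS itself had a rho of -0.138 with GC content across records and -0.290 across the members. For the 14 sterol enzymes, whose median GC content was 49.5% against 49.9% over all tested records, the median log2 fold change was 0.48 with this trend removed. The 7 members called in the main fit were all called with the trend removed.

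**Figure D5:**
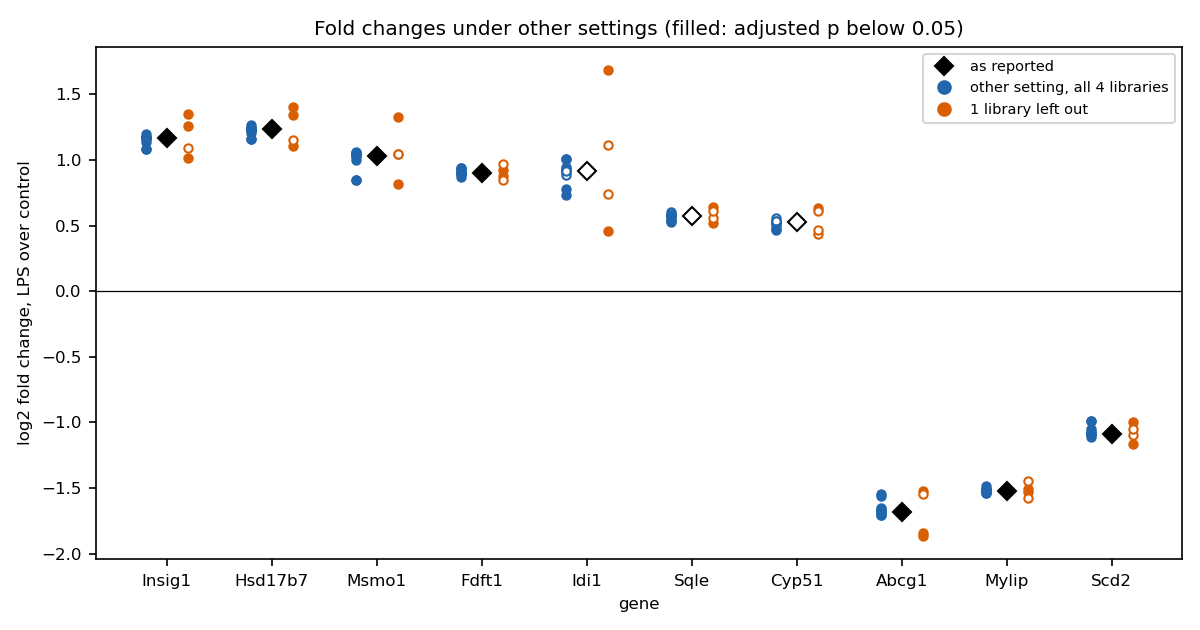
Log2 fold change, LPS over control, of 10 genes as reported (black diamonds), under other settings with all 4 libraries (blue) and with 1 library left out (orange), filled where the adjusted p was below 0.05. No value crosses 0, and Idi1 spreads most, between 0.46 and 1.68.

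Further genes of these pathways were read from the same fit. Of 35 other sterol pathway genes 24 were tested, 1 was higher (4.17%, against 3.82% of all records) and 0 were lower in edgeR (median log2 fold change -0.04). At an unadjusted p below 0.05, 2 were lower, and the DESeq2 Wald test and limma-voom called 0 and 0 lower. The 1 gene, Stard5, a cytosolic sterol carrier, was called in 8 of 14 alternative fits and not by the DESeq2 Wald test (adjusted p 0.194). Stard5 had 124 and 120 normalised counts in the LPS libraries, against 73.1 and 59.1 in the controls (log2 fold change 0.90, SE 0.234, adjusted p 0.0486). Of the 11 genes not tested, 8 have 2 or more records.

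Of 40 other LXR and lipid genes 20 were tested, with a median log2 fold change of -0.04, and 15 of the 20 not tested have 2 or more records. Of the tested genes 2 were higher (10%, against 3.82% of all records) and 3 lower (15%, against 1.7% of all records). Dgat2, which makes triglyceride, had 337 and 354 normalised counts in the LPS libraries, against 132 and 111 in the controls (log2 fold change 1.52, SE 0.201, adjusted p 0.000707). Acsl1, which activates fatty acids with coenzyme A, had 255 and 255 after LPS, against 91.4 and 113 in controls (log2 fold change 1.31, SE 0.210, adjusted p 0.00298). Both are enzymes of fatty acid use rather than of synthesis. Arl4c, a small GTPase gene known as an LXR target, had 3.70 and 5.87 after LPS, against 38.0 and 27.9 in controls (log2 fold change -2.73, SE 0.451, adjusted p 0.00349). Ncoa3 and Ncoa1, coactivators of nuclear receptors, had log2 fold changes of -1.05 and -1.24 (adjusted p 0.00714 and 0.0287). Ncoa3 had 155 and 143 after LPS, against 315 and 301 in controls, and Ncoa1 had 23.1 and 29.3 after LPS, against 68.9 and 56.5 in controls. Dgat2, Acsl1 and Arl4c were called in each alternative fit that tested them, and Ncoa1 was not called by the DESeq2 Wald test (adjusted p 0.151).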

How the data were processed

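Per the labels, ribosomal RNA was depleted and strand-specific libraries were read from both ends. The deposited file gives whole counts for each RefSeq transcript. Its name calls them normalised, yet the totals differ between columns, and they were treated as raw counts. The submitters' processing notes list build mm10 and the read tools CASAVA 1.8.2 and Trimmomatic 0.33. They also list TopHat2 2.0.10, Cufflinks 2.2.1, and HTSeq 0.6.1. The role of each, the annotation release and the strand setting were not given in the sources used.

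RefSeq tables of GRCm38.p6, the assembly behind mm10, gave symbols and 1-based positions to 32487 of 32915 records. Length and GC content came from GENCODE M21 transcripts matched by record or, failing that, from the longest transcript of the gene. Records were kept by filterByExpr with a minimum count of 10, scaled by TMM and tested with edgeR 4.0.16 in R 4.3.3 (quasi-likelihood, no covariates, 4 libraries, Benjamini-Hochberg over 6981 records). DESeq2 1.42.0 and limma 3.58.1 (voom) were alternatives. The script was tested on simulated data. Values in each library are printed for members past the threshold, those with an unadjusted p below 0.05 and a set of regulators; called genes of the other lists are named. The members, lists and rules were chosen with earlier results of these data known. The labels name no molecular identifiers, so counting limits cover counting error only.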

Additional observations from a re-analysis of the deposited data

How the results depend on the processing

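With 2 libraries per group, leaving 1 out leaves the spread to the other pair and assumes that the lone library varies like it. Left out in turn, the libraries gave 165 to 723 records higher and 39 to 581 lower, and 1 to 10 members higher and 0 to 5 lower, the low ends without LPS replicate 2 and the record highs without control replicate 2. Without LPS replicate 2, 0 members were lower in edgeR and 3 were at an unadjusted p below 0.05; only edgeR was run there.

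Against 267 records higher and 119 lower, the counts were 401 and 288 with the replicate block, 430 and 337 with the GC and length trend removed, and 551 and 550 with both. The labels do not say whether a replicate number marks a shared batch. The replicate 1 minus 2 differences of the groups had a correlation of 0.242 across records, and with 2 pairs this does not establish a pairing. The block gave 6 members higher and 3 lower. Limiting to a mean of 50 normalised counts gave 164 and 54, the DESeq2 Wald test 66 lower, and no filter 209 lower. Members higher were 7 with the trend removed and 10 with trend and block; members lower were 1 in the DESeq2 Wald test and 1 with a mean of 50.

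Signs turned for uncalled members, on the log2 scale. Elovl5 was -0.040 with the trend removed and -0.090 with trend and block, and Elovl6 was 0.019 in limma-voom and 0.037 with the block. With 1 library left out in turn, values ran from -0.063 to 0.23 for Elovl5, -0.44 to 0.66 for Elovl6, -0.079 to 0.62 for Srebf2, -0.43 to 0.090 for Abca1, -0.26 to 0.17 for Lpcat3, -0.25 to 0.53 for Fasn and -0.25 to 0.11 for Fads1. The causes were not tested. For single genes, 460 of the other values kept direction and side of the threshold, 23 newly passed and 26 no longer passed.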
